A study of Homo sapiens with 15 samples.

Results

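Long noncoding transcripts and the host transcripts of small nucleolar RNAs (snoRNAs) and microRNAs were followed in immortalized human astrocytes (IHA) in which doxycycline switched on mutant IDH1. Members were taken from the table that holds the day 7 samples by symbol: LINC names, antisense names (ending in AS and a digit), SNHG names, microRNA host names, and MALAT1, NEAT1, MEG3, H19, GAS5, DANCR and CYTOR. They were chosen by name and by count: a mean of at least 10 unique molecular identifiers (UMIs) over the 11 libraries of that table was required. Of its 15230 genes, 520 had such a symbol and 250 reached the mean. The 250 members were 57 LINC transcripts, 153 antisense transcripts, 24 snoRNA hosts (23 SNHG genes and GAS5), 11 microRNA hosts, and MALAT1, NEAT1, MEG3, DANCR and CYTOR. H19 is not listed in that table. Mean counts chose the members and are therefore a description: MIR155HG with 10.0 UMIs, HDAC4-AS1 with 10.1 and MUC12-AS1 with 10.1 lay just inside, and LINC00115 with 9.82, LINC02614 with 9.82 and NDUFV2-AS1 with 9.91 lay just outside. The direction of change between groups played no part in the choice, and all 250 members passed the filter on low counts at day 7.

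The 15 samples were 6 without doxycycline, 4 at day 3 and 5 at day 7 of doxycycline at 1 µg/ml, which induced IDH1 with the R132H change. IHA are a fetal astrocyte line immortalized with SV40. Sample titles carry a tag, b1 or b2, which the labels do not explain and which entered the fits as a term: 3 untreated and 1 day 7 sample were b1, and 3 untreated, 4 day 7 and all 4 day 3 samples were b2. RNA was counted by bulk MARS-seq, which counts the 3′ ends of transcripts, so a level depends on the 3′ end and is not divided by length. All groups share the line and its genotype label, which reads wild-type IDH1 in every sample. Doxycycline was never given to cells lacking the inducible gene, and the labels give the untreated samples no day, so mutant IDH1, doxycycline itself and time in culture cannot be told apart. Whether the samples within a group came from separate cultures is not stated, so p-values measure the spread between these samples, which may be technical.

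Libraries of the day 7 table had 2573290 to 5567651 UMIs. A second table of 12575 genes, with 3 untreated libraries and the 4 day 3 and 4 day 7 libraries of b2, had 1816599 to 4656705. It counts again libraries that the day 7 table also holds. IDH1 was counted at 26.4 to 36.8 CPM (UMIs scaled to the TMM library size) in untreated and 28.6 to 43.4 CPM in day 7 libraries, a log2 change of 0.22 ± 0.11 (SE) with edgeR adjusted p = 0.178. A 3′ count of the IDH1 gene need not include the induced copy, so it does not check the induction. Of 16 astrocyte markers 11 were listed, with VIM at 5981 to 9231 CPM and CD44 at 454 to 706 CPM. GFAP, AQP4, ALDH1L1 and SLC1A2, markers of mature astrocytes, were not listed, nor was FABP7.

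Long noncoding RNAs act as RNA, in the nucleus or the cytoplasm, and many are transcribed from the strand opposite to a protein-coding gene. snoRNA host transcripts carry snoRNAs in their introns. The snoRNAs, freed after splicing, guide ribose methylation and pseudouridylation of ribosomal RNA, while the spliced exons are often degraded in the cytoplasm. Many snoRNA hosts start with a run of pyrimidines, as ribosomal protein genes do. microRNA hosts are the long precursors from which microRNA hairpins are cut. Several named members have known sites: MALAT1 in nuclear speckles and NEAT1 as the scaffold of paraspeckles.

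Mature microRNAs of the 3 hosts on which the results below turn are printed from RefSeq (GRCh38.p14), 5′ to 3′, with the seed (bases 2 to 8) in capitals. MIR34AHG carries miR-34a in an exon (minus strand of chromosome 1), and MIR503HG and MIR222HG carry theirs in introns (minus strand of chromosome X). MARS-seq did not count these mature microRNAs.
miR-34a-5p: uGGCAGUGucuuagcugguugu
miR-34a-3p: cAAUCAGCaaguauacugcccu
miR-503-5p: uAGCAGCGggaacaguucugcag
miR-221-3p: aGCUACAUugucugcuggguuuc
miR-222-3p: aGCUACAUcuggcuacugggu
miR-221-3p and miR-222-3p share the seed GCUACAU, while miR-34a-5p and miR-503-5p have seeds of their own.

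Start sites of 5 of the 6 snoRNA hosts called at day 7 are printed here as 40 bases, 20 before and 20 from the RefSeq start (GRCh38.p14), on the gene's strand. Capitals mark the longest run of C or T where it has at least 8 bases, and SNHG9 has no entry in the promoter table.
SNHG4, chr5:139274081-139274120, plus strand: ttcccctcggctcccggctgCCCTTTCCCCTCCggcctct
SNHG7, chr9:136728165-136728204, minus strand: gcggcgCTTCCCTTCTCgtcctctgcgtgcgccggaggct
SNHG29, chr17:16438967-16439006, plus strand: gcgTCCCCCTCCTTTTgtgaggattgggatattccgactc
SNHG17, chr20:38435309-38435348, minus strand: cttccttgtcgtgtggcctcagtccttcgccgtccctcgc
SNHG30, chr17:35568094-35568133, plus strand: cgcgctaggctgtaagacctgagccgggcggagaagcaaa
The longest run begins at the RefSeq start in SNHG4, whose window also opens with a shorter one, and lies before the start in SNHG7 and SNHG29. SNHG17 and SNHG30 have no run of that length in the window. Over all 35116 RefSeq promoters, 17.5% have such a run in this window on the gene's strand, against 8 of 20 promoters of snoRNA hosts (40.0%) and 43 of 241 promoters of members with an entry (17.8%). The motif CACGTG (its own reverse complement) stands within 250 bases before to 50 after the start in 7.26% of all promoters and in 2 of 20 of snoRNA hosts, SNHG30 and SNHG7. A match is a description of the letters. Neither motif was tested against the expression changes.

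At day 7, 33 of the 250 members were called at an adjusted p under 0.05 (edgeR quasi-likelihood test with a term for b1 or b2, Benjamini-Hochberg over all 12449 genes tested). They were 13.2% of the members, against 15.7% of all genes tested. Up calls numbered 16 (all genes 8.43% up) and down calls 17 (all genes 7.28% down). An unadjusted p under 0.05 was found for 63 of the 250 members and for 3713 of the 12449 genes. The median member changed by -0.06 (log2) and the median gene by -0.02, so the set as a whole moved no more often than the rest of the transcriptome. With library size alone as the scaling, which shifted the median gene to -0.09, the split was 11 up and 24 down. In b2, the untreated and day 7 libraries did not overlap for 61 of 250 members (24.4%) and for 25.1% of all genes. In bulk RNA, fewer cells of a type and less RNA per cell cannot be told apart.

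Classes differed in their counts. Of the 24 snoRNA hosts 5 were up and 1 down (25.0% called, median 0.08), and of the 11 microRNA hosts 1 was up and 1 down (18.2%). The antisense class had 7 up and 13 down of 153 (13.1%, median -0.06), the LINC class 2 up and 1 down of 57 (5.26%, median -0.08), and the 5 singly named transcripts 1 up and 1 down. Under library size alone the snoRNA hosts gave 3 up and 2 down, the antisense class 5 up and 16 down, the LINC class 2 up and 4 down, and the singly named ones none up and 1 down. An unadjusted p under 0.05 was found for 9 of 24 snoRNA hosts, 4 of 11 microRNA hosts, 32 of 153 antisense and 15 of 57 LINC members. The same held for 3 of the 5 singly named ones and 3713 of 12449 genes. No test compared the classes with each other, and the part of count depth in these shares was not tested.

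**Figure D1:**
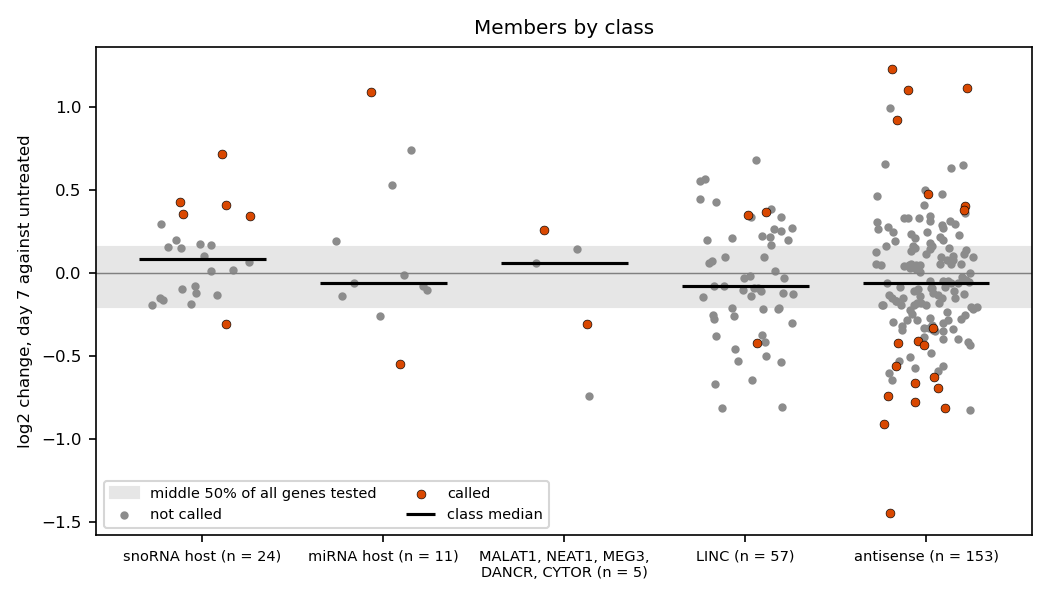
Log2 change at day 7 against untreated cells for the 250 members, by class, with 1 point per member, the class median as a line, members called by edgeR in orange and the middle 50% of all genes tested as a grey band. Most members of each class sit near 0, and the calls are 5 up and 1 down among the snoRNA hosts and 7 up and 13 down among the antisense transcripts.

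SNHG4, which hosts SNORA74A and SNORA74D on chromosome 5 (139274102 to 139284899, plus strand), had the largest rise among the snoRNA hosts. Its level in untreated b1 was 9.07, 8.57 and 5.99 CPM, and 12.4 CPM in the day 7 b1 library. In b2 it was 16.3, 24.6 and 24.8 CPM untreated and 28.1, 38.0, 39.8 and 37.7 CPM at day 7. Every day 7 library lay above every untreated library of its own tag. The change was 0.71 ± 0.15 (log2, SE; 1.64-fold, adjusted p = 0.00179 by edgeR), on 22 to 228 UMIs per library. SNHG4 shares 626 exon bases on the same strand with MATR3, so its reads and those of MATR3 cannot be fully told apart, and the second table counted almost none of it: 15 UMIs over the 5 b2 libraries that both tables name, against 703 in the day 7 table.

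SNHG17, host of the SNORA71 family, and SNHG7, host of SNORA17A and SNORA17B, rose in both tags. SNHG17 was at 35.8, 39.0 and 33.5 CPM in untreated b1 and 52.2 CPM at day 7, and at 22.6, 27.3 and 21.2 CPM in untreated b2 and 29.9, 32.3, 30.2 and 29.9 CPM at day 7. This is 0.41 ± 0.10 (1.33-fold, edgeR adjusted p = 0.00788), with no overlap between the groups within a tag, and 0.36 (0.0548) in b2 libraries alone. SNHG7 was at 113, 118 and 106 CPM in untreated b1 and 151 CPM at day 7, and at 62.4, 78.5 and 70.2 CPM in untreated b2 and 97.1, 75.2, 90.2 and 85.9 CPM at day 7. Its b2 groups overlapped by 1 library, and the change was 0.34 ± 0.08 (1.27-fold, edgeR adjusted p = 0.00704).

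SNHG30, host of SNORD7, and SNHG9, host of SNORA78, rose less firmly. SNHG30 was at 13.0, 14.8 and 14.4 CPM in untreated b1, 20.3 CPM in day 7 b1, 12.9, 11.7 and 12.6 CPM in untreated b2 and 15.8, 15.0, 16.6 and 16.7 CPM in day 7 b2 (0.43 ± 0.13, edgeR adjusted p = 0.0232). SNHG9 was at 33.8, 30.0 and 32.4 CPM in untreated b1, 40.6 CPM in day 7 b1, 17.0, 20.2 and 23.8 CPM in untreated b2 and 23.0, 24.5, 27.4 and 27.7 CPM in day 7 b2 (0.35 ± 0.11, edgeR adjusted p = 0.0338). The highest untreated b2 library of SNHG9 lay above the lowest day 7 one. Neither was called with library size alone, where the adjusted p was 0.0552 for SNHG30 and 0.0948 for SNHG9.

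SNHG29, host of SNORD49A, SNORD49B and SNORD65 and the snoRNA host with the highest CPM, was the snoRNA host that fell. Its level was 759, 756 and 800 CPM in untreated b1 and 726 CPM at day 7, and 488, 453 and 397 CPM in untreated b2 against 273, 363, 348 and 361 CPM at day 7. All day 7 libraries lay below the untreated ones of their tag. The change was -0.31 ± 0.08 (1.24-fold lower, edgeR adjusted p = 0.0133), and it was -0.41 ± 0.10 (adjusted p = 0.0074) in the second table, which counts libraries of b2 again. Without untreated b2-1 it was -0.25 with an adjusted p of 0.0665.

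The other 18 snoRNA hosts were not called at day 7. GAS5, known for its accumulation in growth-arrested cells, was at 101, 104 and 99.1 CPM in untreated b1, 72.9 CPM in day 7 b1, 120, 103 and 51.5 CPM in untreated b2 and 99.7, 106, 85.7 and 73.4 CPM in day 7 b2. Untreated b2-4 stood at less than any other library, and the change was -0.15 ± 0.21 (adjusted p = 0.691) with it and -0.34 (adjusted p = 0.0306) without it. SNHG12 changed by 0.29 ± 0.11 (adjusted p = 0.0707), SNHG6 by -0.19 ± 0.08 (0.106), SNHG16 by 0.16 ± 0.07 (0.134), SNHG1 by 0.20 ± 0.18 (0.491), SNHG3 by 0.07 ± 0.09 (0.671), SNHG5 by 0.15 ± 0.11 (0.41) and SNHG15 by 0.18 ± 0.11 (0.292). SNHG8 was at -0.10 ± 0.11 (0.569), SNHG10 at 0.01 ± 0.14 (0.957), SNHG11 at 0.17 ± 0.15 (0.479), SNHG14 at -0.12 ± 0.15 (0.642), SNHG18 at -0.16 ± 0.12 (0.399), SNHG19 at -0.19 ± 0.12 (0.304) and SNHG20 at 0.10 ± 0.25 (0.826). SNHG25 was at -0.08 ± 0.10 (0.657), SNHG26 at 0.01 ± 0.20 (0.979) and SNHG32 at -0.13 ± 0.13 (0.54). SNHG1 and SNHG12 were called up without day 7 b1-13 (0.48, adjusted p = 0.0451, and 0.40, adjusted p = 0.0181). SNHG6 was called down without it (-0.28, adjusted p = 0.0205) and with library size alone (-0.26, 0.0296), and SNHG19 was called down without day 7 b2-17 (-0.29, adjusted p = 0.0499). SNHG12 was also called up without untreated b1-3 (0.32, adjusted p = 0.0455) and without day 7 b2-19 (0.35, adjusted p = 0.0328).

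**Figure D2:**
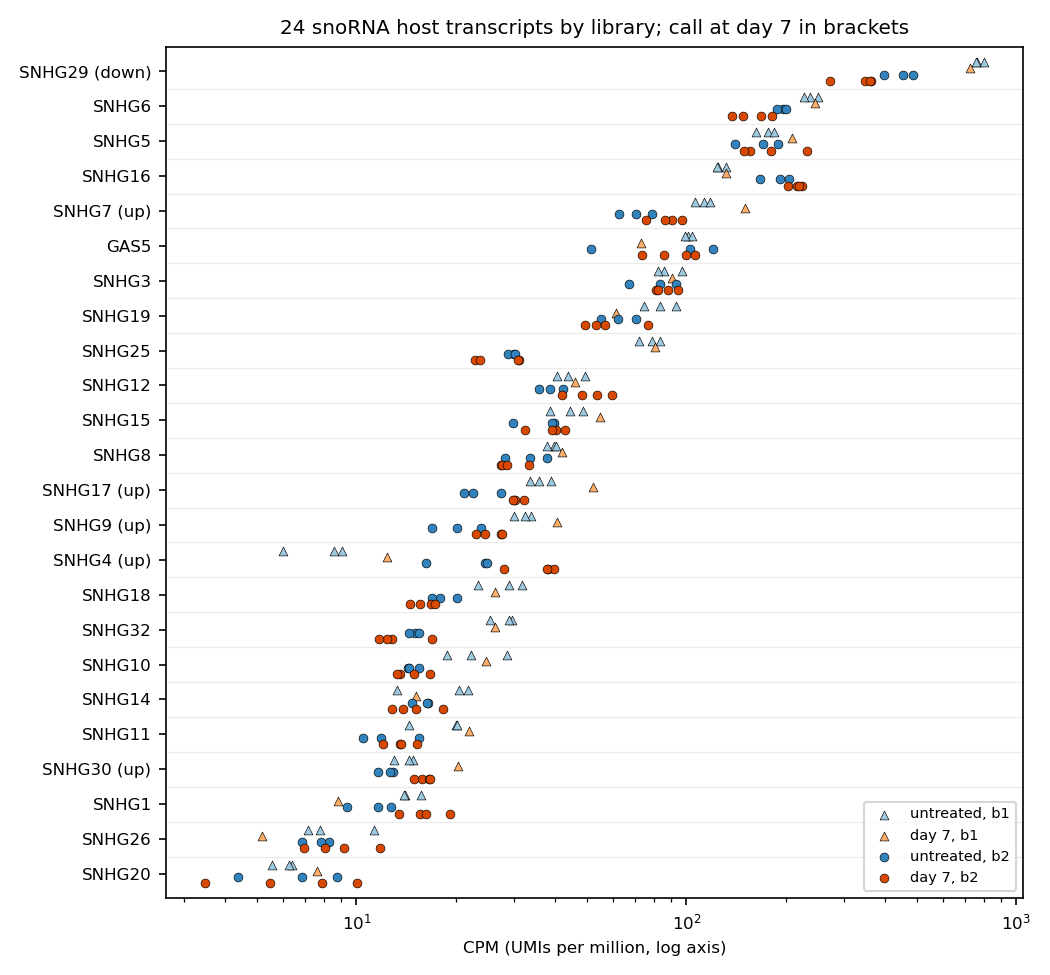
CPM (log axis) of the 24 snoRNA hosts in each library of the day 7 table, 1 row per host in order of mean CPM, with untreated and day 7 libraries of b1 and b2 in separate lines of the row. SNHG4 rises from at most 24.8 CPM to at least 28.1 CPM in b2, SNHG29 falls from at least 397 CPM to at most 363 CPM in b2, and 1 untreated GAS5 library stands apart at 51.5 CPM.

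Proteins that work with snoRNAs were read from a list fixed with earlier results of these data known. Of 12 snoRNP core and assembly proteins 4 rose and none fell at day 7, with a list median of 0.15 against -0.02 for all genes, of which 8.43% were called up. They were NOP56, a core protein of box C/D particles (0.47 ± 0.06, edgeR adjusted p = 1.04e-05), NHP2, a core protein of box H/ACA particles (0.28 ± 0.07, 0.00578), and the assembly ATPases RUVBL1 (0.32 ± 0.07, 0.00288) and RUVBL2 (0.24 ± 0.08, 0.0377). Of 29 protein-coding genes with intronic snoRNAs 7 rose and none fell, with a median of 0.14, among them NOP56, HSPA8 (0.39), EIF4A1 (0.34), RPS3 (0.35), RPL7A (0.25) and RPL4 (0.24). With library size alone 3 of the 12 and 5 of the 29 rose and none fell. NOP56 and DKC1 are on both lists, and the part of count depth in these shares was not tested. Ribosomal protein genes have pseudogenes that could split their counts.

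MIR34AHG, host of miR-34a, a microRNA that p53 is known to switch on, had the largest rise among microRNA hosts. It was at 22.1, 20.7 and 23.5 CPM in untreated b1 and 31.1 CPM at day 7, and at 6.31, 6.56 and 6.84 CPM in untreated b2 and 15.0, 19.0, 20.2 and 18.7 CPM at day 7. The groups did not overlap within either tag, and untreated b2 cells held less than any other group. The change was 1.09 ± 0.17 (95% interval 0.75 to 1.43; 2.13-fold, edgeR adjusted p = 8.5e-05), on 19 to 116 UMIs. Its span, chromosome 1 from 9148011 to 9198906 on the minus strand, overlaps 431 exon bases of LNCTAM34A on the other strand, whose reads cannot be told apart without a stated strand setting.

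MIR503HG, host of miR-503, fell at day 7. Its level was 39.7, 40.5 and 37.9 CPM in untreated b1 and 28.3 CPM in day 7 b1, and 25.5, 27.5 and 21.6 CPM in untreated b2 and 16.8, 17.9, 18.5 and 14.1 CPM at day 7, with no overlap within a tag. The change was -0.55 ± 0.11 (1.46-fold lower, edgeR adjusted p = 0.00199). In the second table it had 79 UMIs over the shared libraries against 354, and a change of -0.16 (adjusted p = 0.756).

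MIR222HG, host of miR-221 and miR-222, changed by 0.74 ± 0.28 (adjusted p = 0.08) over both tags, and by 1.64 (adjusted p = 0.0015) in b2 libraries alone, where 1.94, 1.64 and 1.44 CPM stood against 5.08, 4.90, 6.80 and 4.01 CPM at day 7. Its b1 libraries were at 10.8, 16.0 and 14.6 CPM untreated and 12.4 CPM at day 7, within the untreated range. MIR210HG, host of the hypoxia-linked miR-210, changed by -0.26 ± 0.12 (0.144), and MIRLET7BHG, host of let-7 microRNAs, by -0.06 ± 0.12 (0.78). The 12 listed proteins that cut or load microRNAs gave 1 rise, TARBP2, a partner of Dicer (0.43 ± 0.09, edgeR adjusted p = 0.00222), and no fall, with a median of -0.06.

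p53 and MYC are known regulators of miR-34a and of nucleolar genes. A list of 9 genes linked to them was fixed with earlier results of these data known. Of these CDKN1A, a p53 target that halts the cell cycle (0.33, adjusted p = 0.0025), ODC1 (0.54, 2.1e-06) and NOP16 (0.58, 7.63e-05), both MYC targets, rose. BTG2 (-0.69, 0.029) and GDF15 (-0.29, 0.036), both p53 targets, fell, and MDM2 was at -0.24 (0.228) and MYC at 0.21 (0.0621) by edgeR. limma-voom also called 3 of the 9 up and 2 down, while DESeq2 called 5 up and none down.

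MALAT1, the nuclear speckle RNA, differed widely between libraries. It was at 196, 231 and 216 CPM in untreated b1 and 97.2 CPM at day 7, and at 925, 935 and 928 CPM in untreated b2 and 507, 728, 881 and 301 CPM at day 7. Untreated b2 libraries were within 10 CPM of each other, while the day 7 libraries lay below them and spread from 301 to 881 CPM. The change was -0.74 ± 0.28 (95% interval -1.38 to -0.11) with edgeR adjusted p = 0.112, -0.75 with an adjusted p of 0.0382 by DESeq2, and -0.93 with an adjusted p of 0.0397 without day 7 b2-19. The second table counted 432 MALAT1 UMIs over the shared libraries against 13402, at 22.9, 31.0 and 23.5 CPM untreated and 14.6, 29.5, 33.5 and 23.4 CPM at day 7, with a change of -0.03 ± 0.24 (adjusted p = 0.955). The drop was therefore seen in the day 7 table and not in the second table.

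NEAT1, the paraspeckle scaffold, was at 54.4, 60.4 and 69.4 CPM in untreated b1, 43.4 CPM in day 7 b1, 46.6, 51.0 and 51.5 CPM in untreated b2 and 48.4, 63.7, 64.2 and 60.7 CPM in day 7 b2. The single day 7 b1 library lay below its untreated libraries while 3 of the 4 day 7 b2 libraries lay above theirs. The overall change was 0.06 ± 0.12 (95% interval -0.20 to 0.32, adjusted p = 0.789). None of 12 paraspeckle proteins was called by edgeR (4 had an unadjusted p under 0.05, limma-voom called none and DESeq2 called 1 up), with a median of 0.07. With library size alone 2 of them were called down and with DESeq2 size factors 2 were called up. Of 12 nuclear speckle and splicing proteins SRSF7 rose (0.22, adjusted p = 0.0181) and CLK4, a kinase of splicing factors, fell (-0.80, 0.00151).

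MEG3, an imprinted transcript expressed from the maternal copy, was called down, but through b1. It was at 230, 236 and 237 CPM in untreated b1 and 150 CPM in day 7 b1, and at 102, 110 and 101 CPM in untreated b2 and 97.6, 109, 89.9 and 78.1 CPM at day 7, where the groups overlapped. The change was -0.31 ± 0.09 (1.24-fold lower, edgeR adjusted p = 0.0271), and -0.15 (adjusted p = 0.275) without day 7 b1-13. DANCR, which hosts SNORA26, rose: 86.5, 74.0 and 79.4 CPM in untreated b1, 93.2 CPM in day 7 b1, 59.7, 62.3 and 61.6 CPM in untreated b2, and 79.4, 75.8, 70.1 and 72.0 CPM in day 7 b2. All day 7 libraries stood above the untreated ones of their tag (0.26 ± 0.08, edgeR adjusted p = 0.0251), and with library size alone the change was 0.19 (0.0892). CYTOR was at 144 to 158 CPM in untreated b1, 156 CPM in day 7 b1, 72.8 to 82.4 CPM in untreated b2 and 86.5 to 89.6 CPM in day 7 b2 (0.15 ± 0.07, adjusted p = 0.178).

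Nonsense-mediated decay is the pathway that degrades many spliced snoRNA hosts. Of its 13 listed factors SMG9 rose (0.52 ± 0.13, edgeR adjusted p = 0.00991) and none fell, with a median of -0.01. Among 28 noncoding transcripts whose symbols the member rule does not match, 16 were tested: LUCAT1 rose (0.76, adjusted p = 0.002), and HCP5 (-0.89, 0.00598) and TP53TG1 (-0.63, 0.00789) fell.

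Among the 57 LINC transcripts, LINC01551 and LINC02693 rose and LINC00707 fell. LINC01551 was at 69.6, 70.2 and 73.2 CPM in untreated b1, 78.5 CPM in day 7 b1, 81.3, 71.1 and 70.6 CPM in untreated b2 and 104, 101, 97.4 and 105 CPM in day 7 b2, with no overlap within a tag (0.37 ± 0.08, edgeR adjusted p = 0.00312). LINC02693 went from 38.7, 39.8 and 33.5 to 52.2 CPM in b1, and was at 49.0, 44.5 and 54.0 CPM in untreated b2 and 68.2, 57.6, 49.7 and 64.2 CPM in day 7 b2 (0.34 ± 0.10, edgeR adjusted p = 0.0215). LINC00707 was at 17.9, 18.3 and 20.8 CPM in untreated b1, 7.57 CPM in day 7 b1, 31.1, 33.9 and 31.7 CPM in untreated b2 and 28.1, 25.9, 23.9 and 30.6 CPM in day 7 b2. Its change was -0.42 ± 0.14 (edgeR adjusted p = 0.0367), and -0.25 (0.171) without the day 7 b1 library. LINC01578, the LINC member with the highest mean CPM, was at -0.02 ± 0.08 (0.915).

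Antisense transcripts held 20 of the 33 calls and 153 of the 250 members, with 13.1% called against 15.7% of all genes tested. HHIP-AS1, antisense to the Hedgehog inhibitor gene HHIP, fell from 22.5, 24.2 and 25.3 to 17.1 CPM in b1 and from 29.4, 26.4 and 29.9 to 15.2, 15.0, 18.0 and 20.1 CPM in b2 (-0.67 ± 0.12, 1.59-fold lower, edgeR adjusted p = 0.000561). MELTF-AS1 fell from 28.9, 31.6 and 35.9 to 25.1 CPM in b1 and from 19.2, 26.1 and 30.3 to 14.7, 12.7, 11.5 and 14.5 CPM in b2 (-0.74 ± 0.14, 1.68-fold lower, edgeR adjusted p = 0.00106). In both, every day 7 library lay below every untreated library of its tag.

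LMO7-AS1 had the largest fall and PRR7-AS1 the largest rise of the class, both at low counts. LMO7-AS1 was at 3.68, 5.85 and 4.21 CPM in untreated b1, 2.39 CPM in day 7 b1, 2.67, 3.64 and 3.60 CPM in untreated b2 and 0.802, 0.576, 1.57 and 0.892 CPM in day 7 b2 (-1.45 ± 0.33, 2.73-fold lower, edgeR adjusted p = 0.00441), on 2 to 20 UMIs. PRR7-AS1 was at 4.17, 1.95 and 5.32 CPM in untreated b1, 5.18 CPM in day 7 b1, 3.40, 4.01 and 1.44 CPM in untreated b2 and 9.36, 12.1, 9.77 and 6.47 CPM in day 7 b2 (1.23 ± 0.28, 2.34-fold, edgeR adjusted p = 0.00458), on 4 to 56 UMIs. The PRR7-AS1 groups overlapped in b1 and not in b2.

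The other 10 falls and 6 rises ran from -0.91 to -0.33 and from 0.38 to 1.11. Falls were seen for IRF1-AS1 (-0.91, adjusted p = 0.00988), RPARP-AS1 (-0.82, 0.00689), CD27-AS1 (-0.78, 0.0285), ZFHX4-AS1 (-0.70, 0.00782), H1FX-AS1 (-0.63, 0.0106) and ZNF436-AS1 (-0.56, 0.0249) by edgeR. Smaller falls were those of SLC16A1-AS1 (-0.44, 0.0389), MAGI2-AS3 (-0.42, 0.00845), OIP5-AS1 (-0.41, 0.0167) and GABPB1-AS1 (-0.33, 0.0295). Rises were seen for ZMIZ1-AS1 (1.11, 0.011), GATA2-AS1 (1.10, 0.0213), ZBTB11-AS1 (0.92, 0.0317), PRR34-AS1 (0.47, 0.0147), MRPL20-AS1 (0.40, 0.0419) and RNASEH1-AS1 (0.38, 0.041). ZMIZ1-AS1, GATA2-AS1 and ZBTB11-AS1 had low untreated counts, so their rises are not free of the count rule that chose the members. The antisense member with the highest mean CPM, FGD5-AS1, was at -0.20 ± 0.07 (0.0613), and EPB41L4A-AS1, the next, at -0.06 ± 0.09 (0.695).

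The genes opposite the antisense members were read beside them. Of the 153 antisense members 127 overlap an exon on the opposite strand, as do 17 of the 20 called ones, and no source here states whether counting used strand, so reads of such pairs cannot be told apart. The gene that gives the antisense member its name was tested for 123 members, and 28 of those genes were called (all genes tested 15.7%); no test compared them with other genes. For the 20 called antisense members 16 such genes were tested and 5 were called, 4 of them in the direction of the antisense transcript. LMO7 fell (-0.80 ± 0.10, edgeR adjusted p = 8.03e-06) beside LMO7-AS1, MAGI2 fell (-1.24 ± 0.36, 0.0224) beside MAGI2-AS3, and ZMIZ1 (0.34 ± 0.09, 0.00962) and MRPL20 (0.22 ± 0.06, 0.0192) rose beside theirs. MELTF, melanotransferrin, rose (0.33 ± 0.10, 0.0261) while MELTF-AS1 fell. HHIP was at -0.39 ± 0.15 (0.0681), IRF1 at -0.06 ± 0.13 (0.797), GATA2 at 0.07 ± 0.13 (0.767), PRR7 at 0.46 ± 0.18 (0.104) and OIP5 at 0.10 ± 0.09 (0.49).

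**Figure D3:**
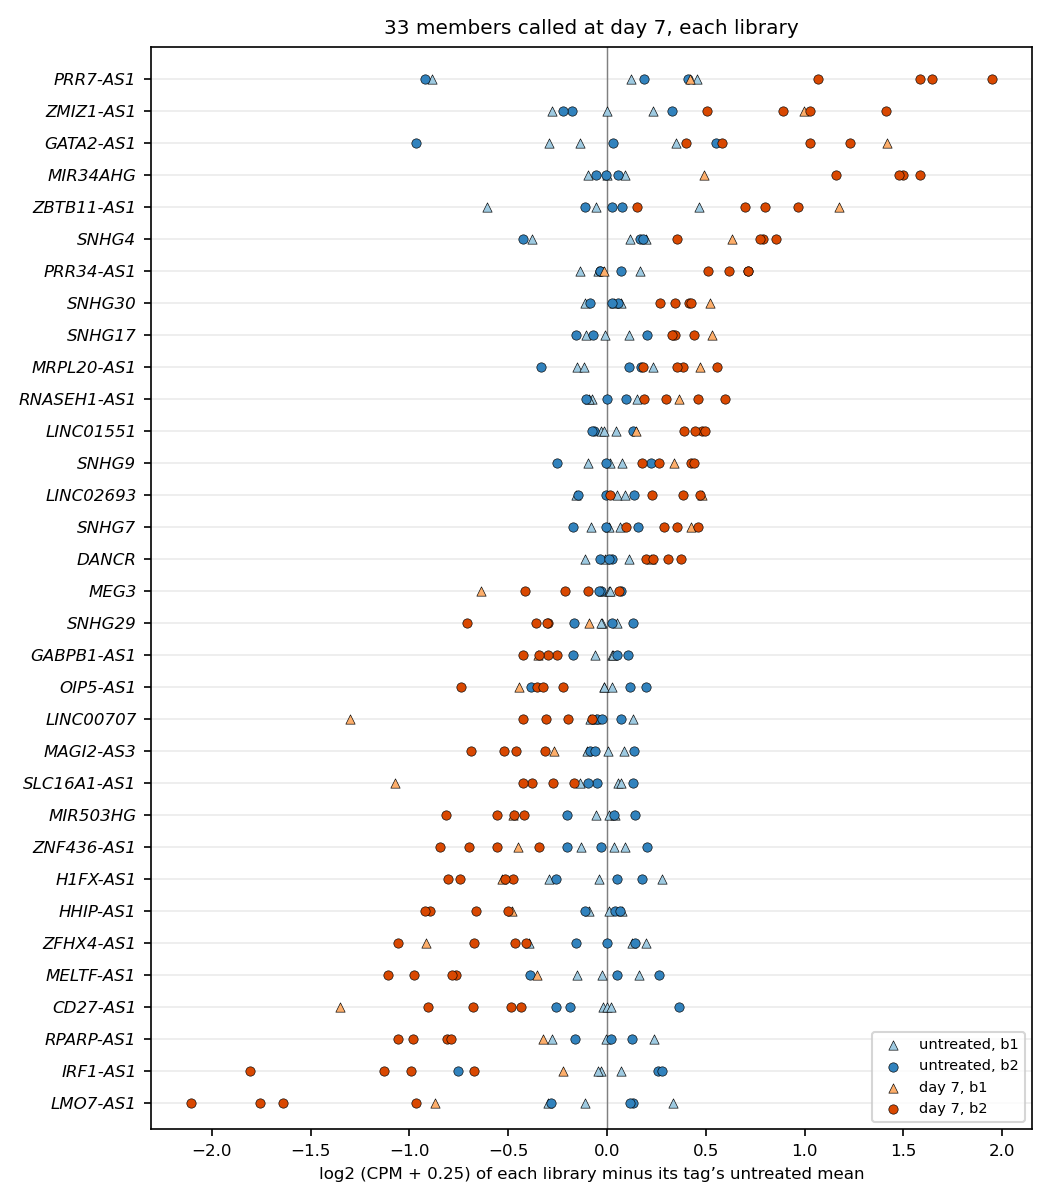
The 33 members called at day 7, 1 row each, with every library's log2(CPM + 0.25) minus the mean of the untreated libraries of its own tag. Day 7 libraries of LMO7-AS1, MELTF-AS1 and HHIP-AS1 lie to the lower side and those of MIR34AHG, PRR7-AS1 and SNHG4 to the higher side. The b2 groups overlap in 7 of the 33 rows, which were chosen by their calls on these same libraries. They do not overlap for 24.4% of all 250 members and 25.1% of all genes tested.

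Calls near the threshold depended on single libraries. Leaving out each of the 11 libraries in turn kept 13 of the 33 calls every time. Under every setting that tested them, 7 calls held: HHIP-AS1, LINC01551, LMO7-AS1, MELTF-AS1, PRR7-AS1, RPARP-AS1 and ZFHX4-AS1. PRR7-AS1 is not listed in the second table, and LMO7-AS1 was below the filter at a mean of 20 UMIs, so these settings did not test them. Without untreated b2-2 alone, H1FX-AS1 (-0.55, adjusted p = 0.0588), IRF1-AS1 (-0.73, 0.0661), PRR34-AS1 (0.41, 0.0702) and ZMIZ1-AS1 (1.02, 0.0533) were no longer called by edgeR. DANCR was lost without untreated b2-1 or b2-2 (0.24 and 0.27, adjusted p 0.0718 and 0.0526), OIP5-AS1 without untreated b2-2 or b2-4 (-0.32 and -0.37, 0.105 and 0.0586), and GATA2-AS1 without untreated b2-1 or day 7 b1-13 (0.89 and 0.96, 0.0936 and 0.0752). SNHG30 (0.41 and 0.40, 0.0701 and 0.068) and LINC02693 (0.31 and 0.30, 0.078 and 0.0609) were lost without untreated b2-2 or day 7 b1-13. CD27-AS1 was lost without untreated b2-1, day 7 b2-17 or day 7 b1-13 (adjusted p 0.058 to 0.125), and ZNF436-AS1 without untreated b2-1, day 7 b2-17 or day 7 b2-20 (0.0525 to 0.102). Besides day 7 b1-13, MEG3 was lost without untreated b2-2, b1-1 or b1-2 or day 7 b2-20 (0.0517 to 0.0677). GABPB1-AS1 was lost without untreated b2-2 or b2-4 or day 7 b2-19, b2-20 or b1-13 (0.0536 to 0.0966). The least firm were SNHG9 and ZBTB11-AS1 (each lost without 6 of the 11 libraries, highest adjusted p 0.134 and 0.103), LINC00707 and MRPL20-AS1 (7, 0.171 and 0.173), RNASEH1-AS1 (8, 0.11) and SLC16A1-AS1 (9, 0.161). SNHG29 was the other member lost without a library. Untreated b2-2 ended most calls, 16, followed by day 7 b1-13 with 12 and untreated b2-1 with 10. DESeq2 did not call CD27-AS1, GABPB1-AS1, MRPL20-AS1, RNASEH1-AS1, SLC16A1-AS1, ZBTB11-AS1 or ZNF436-AS1 (adjusted p 0.0549 to 0.0744). The b2 libraries alone gave 27 calls, 18 of them among the 33, beside 1744 calls over all 12032 genes tested.

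Day 3 was read in the second table, where 190 of the 250 members were listed (9 under an older symbol) and 158 were tested. At day 3 no member was called up and 5 were called down (3.16%), all antisense, against 3.51% of all 10586 genes (1.84% up and 1.67% down) by edgeR. Of the 158, 17 had an unadjusted p under 0.05, beside 1746 of the 10586 genes, and limma-voom called 4 down and DESeq2 2 down. The 20 snoRNA hosts, 29 LINC transcripts, 6 microRNA hosts and 5 singly named members tested gave no call at day 3 by edgeR, limma-voom or DESeq2, with 3, 2, 1 and 1 members at an unadjusted p under 0.05. In the lists of other genes none of 11 snoRNP proteins, 12 speckle proteins or 12 microRNA proteins was called by any of the 3 tools at day 3, where 2, 4 and 2 had an unadjusted p under 0.05 in edgeR.

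HHIP-AS1 was already low at day 3. It was at 36.0, 32.1 and 35.7 CPM untreated, 20.8, 18.0, 21.7 and 17.5 CPM at day 3 and 19.1, 18.1, 21.9 and 23.7 CPM at day 7, so both treated groups lay below the untreated one and overlapped each other. The day 3 change was -0.80 ± 0.14 (edgeR adjusted p = 0.000838). NNT-AS1, antisense to the mitochondrial transhydrogenase gene NNT, was at 11.6, 10.2 and 13.5 CPM untreated, 4.39, 5.40, 3.95 and 6.76 CPM at day 3 and 6.82, 3.82, 7.43 and 5.47 CPM at day 7. Its day 3 change was -1.20 ± 0.25 (edgeR adjusted p = 0.00589), and both calls held without each library in turn. At day 7 NNT-AS1 was at -0.94 (edgeR adjusted p = 0.00485) in the second table and -0.35 ± 0.25 (0.383) in the day 7 table. The day 7 table includes b1 and also counts the same libraries differently. Untreated b2-4 had 18 UMIs there and 31 in the second table, and day 7 b2-17 had 31 and 21. The part of each was not tested.

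MAGI2-AS3 was at 22.3, 22.7 and 25.2 CPM untreated, 13.5, 15.3, 13.0 and 15.8 CPM at day 3 and 12.7, 17.0, 21.4 and 15.6 CPM at day 7 (day 3 -0.70 ± 0.17, edgeR adjusted p = 0.0213). H1FX-AS1 (-0.76 ± 0.20, 0.0369) and GABPB1-AS1 (-0.94 ± 0.27, 0.049) were the other day 3 falls. These 3 calls were less firm. MAGI2-AS3 was lost without 4 of the 11 libraries (untreated X2 or b2-4, day 3 b2-10 or b2-12; adjusted p 0.0697 to 0.0849), H1FX-AS1 without 6 (each untreated library and day 3 b2-10, b2-11 or b2-12; 0.052 to 0.177) and GABPB1-AS1 without 7 (untreated X2 or b2-4, each day 3 library or day 7 b2-19; 0.0574 to 0.313). X1 and X2 are the names that 2 untreated columns of the second table carry. A b1 and a b2 sample share each name, so they were used as untreated libraries with no number. By counts each correlated best with an untreated b2 library of the day 7 table (log2 counts, Pearson r 0.870 and 0.869 across genes, which are not independent).

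Day 7 and day 3 were then compared within the second table. The 158 members gave 4 up and 2 down (3.80%) against 5.07% of all genes (2.76% up and 2.31% down). An unadjusted p under 0.05 was found for 26 members and for 1944 of 10586 genes. DANCR was at 70.2, 72.4 and 72.2 CPM untreated, 60.3, 73.4, 69.1 and 55.2 CPM at day 3 and 91.8, 88.6, 81.7 and 82.1 CPM at day 7, a rise from day 3 of 0.41 ± 0.09 (edgeR adjusted p = 0.0061). LINC01551 was at 48.5, 41.9 and 41.3 CPM untreated, 42.4, 48.2, 40.3 and 51.3 CPM at day 3 and 67.8, 58.0, 58.1 and 63.6 CPM at day 7 (0.45 ± 0.10, edgeR adjusted p = 0.00632). In both, day 3 overlapped the untreated libraries, for DANCR only at 73.4 CPM, and day 7 lay above both groups. Both calls between day 3 and day 7 held without each library in turn. Against untreated libraries of the second table, DANCR at day 7 was at 0.26 and not called (edgeR adjusted p = 0.0574).

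SNHG12 was at 40.7, 44.8 and 47.4 CPM untreated, 43.1, 52.7, 43.4 and 39.4 CPM at day 3 and 71.1, 55.6, 50.3 and 61.2 CPM at day 7 (day 7 over day 3, 0.40 ± 0.11, edgeR adjusted p = 0.0322). It hosts SNORA16A, SNORA44, SNORA61 and SNORD99. ZMIZ1-AS1 rose by 1.63 ± 0.40 (0.0127) on 1 to 21 UMIs, LMO7-AS1 fell by 1.72 ± 0.43 (0.0149) on 2 to 20 UMIs, and FGD5-AS1 fell by 0.24 ± 0.07 (0.043) from day 3 to day 7 by edgeR. ZMIZ1-AS1 was lost without day 3 b2-12 (1.28, adjusted p = 0.0715), LMO7-AS1 without day 3 b2-9 (-1.39, 0.0858), SNHG12 without day 3 b2-9, b2-10 or b2-12 or day 7 b2-17 or b2-20 (0.0759 to 0.108), and FGD5-AS1 without 8 of the 11 libraries (untreated X2 or b2-4, each day 3 library, day 7 b2-18 or b2-20; 0.0506 to 0.158). DESeq2 did not call SNHG12 (0.40, adjusted p = 0.0828), ZMIZ1-AS1 (1.64, 0.0514) or FGD5-AS1 (-0.25, 0.0752), and gave 2 up and 2 down over all members, with none up and 1 down among snoRNA hosts. Day 3 and day 7 share the untreated libraries, so their changes are not independent of each other.

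**Figure D4:**
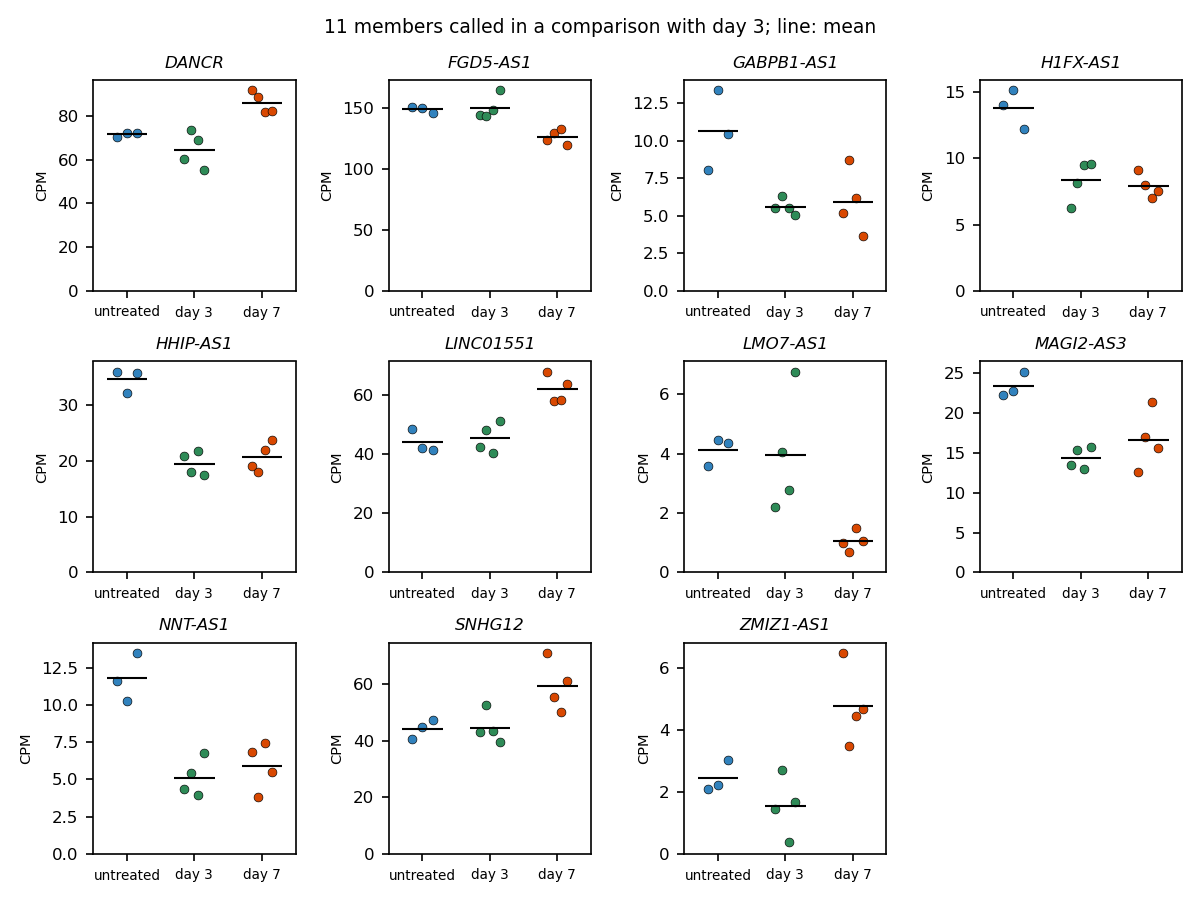
CPM in the second table for the 11 members called at day 3 or between day 3 and day 7, with untreated, day 3 and day 7 libraries side by side and the group mean as a line. HHIP-AS1 and NNT-AS1 stand lower at day 3 than untreated, while DANCR and LINC01551 overlap the untreated libraries at day 3 and stand higher at day 7.

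The tags b1 and b2 separated the members more than doxycycline did. With treatment as a term, 98 of the 250 (39.2%) differed between b2 and b1, 48 higher and 50 lower in b2, against 54.1% of all genes (27.1% higher and 27.0% lower). Under library size alone the split was 56 higher and 38 lower. snoRNA hosts leaned to b1: 2 of 24 were higher and 13 lower in b2, and 2 higher and 11 lower under library size alone. SNHG25 was at 71.7 to 83.4 CPM in untreated b1 and 28.8 to 30.3 CPM in untreated b2 (-1.47 ± 0.10, edgeR adjusted p = 5.47e-11), SNHG29 at -0.90 ± 0.08 (1.08e-08) and SNHG7 at -0.71 ± 0.09 (2.9e-07). SNHG4 (1.51 ± 0.17, 1.27e-07) and SNHG16 (0.62 ± 0.08, 2.96e-07) were higher in b2.

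The 3 largest differences toward b2 were those of LINC01521 (2.81 ± 0.48, edgeR adjusted p = 2.72e-05), FBXL19-AS1 (2.75 ± 0.34, 3.63e-07) and MALAT1 (2.27 ± 0.31, 0.000274). FBXL19-AS1 was at 0.665 to 1.23 CPM in untreated b1 and 4.86 to 9.00 CPM in untreated b2. In the b1 libraries LINC01521 had 0 to 5 UMIs and FBXL19-AS1 had 2 to 5, so both reached the mean of 10 through b2. Their differences are therefore not free of the count rule that chose the members. Toward b1 they were MIR222HG (-2.14 ± 0.27, 1.27e-06), MIF-AS1 (-1.80 ± 0.13, 1.43e-10) and LINC01089 (-1.54 ± 0.16, 1.72e-08). MIF-AS1 was at 56.5 to 63.5 CPM in untreated b1 and 12.6 to 19.2 CPM in untreated b2. MEG3 was lower in b2 by 1.01 ± 0.09 (6.39e-09) and MIR34AHG by 1.33 ± 0.17 (5.1e-07).

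Whether the day 7 change itself differed between b1 and b2 was tested with an interaction term. Of 250 members 3 were called (1.20%) against 2.44% of 13371 genes, and 26 had an unadjusted p under 0.05. All 3 were smaller in b1 than in b2: MIR222HG by -1.77 ± 0.45 (edgeR adjusted p = 0.03), MIR34AHG by -1.004 ± 0.27 (0.0447) and SLC9A3-AS1 by -0.95 ± 0.22 (0.0159). SLC9A3-AS1 was at 33.6, 40.1 and 42.8 CPM in untreated b1 and 28.3 CPM in day 7 b1, and at 36.7, 36.8 and 40.0 CPM in untreated b2 and 58.0, 52.7, 52.3 and 49.1 CPM in day 7 b2. It was below the untreated libraries at day 7 in b1 and above them in b2, and it was named after its values were seen. The b1 side of each rests on 1 day 7 library. SLC9A3-AS1 was called without each other library in turn, MIR222HG was lost without 5 of them (untreated b2-2, b2-4, b1-2 or b1-3 or day 7 b2-19; adjusted p 0.0674 to 0.0909), and MIR34AHG without each of 9 of the 10, day 7 b2-17 being the exception (0.0593 to 0.104).

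Untreated b2-4 and the 4 day 7 b2 libraries are counted in both tables, which shows how far a noncoding level depends on the counting. The second table held a median of 0.891 times the UMIs of the day 7 table for the 190 members in both, and less than 0.5 times for 53 of them (27.9%). For all 10212 genes with at least 50 UMIs the median was 0.950, and 17.4% were below 0.5. NOP14-AS1 had 71.0 times fewer UMIs in the second table (3 against 213), SNHG4 46.9 times, MALAT1 31.0 times and SNHG3, which shares 242 same-strand exon bases with RCC1, 15.2 times (111 against 1688). SNHG32 went the other way, with 277 UMIs in the day 7 table and 4047 in the second, 14.6 times as many. NEAT1 (1185 and 1162 UMIs) and SNHG29 (6992 and 6951) were counted almost alike. NOP14-AS1 was named after its counts were seen.

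Within the second table, 22 of 158 members were called at day 7, 7 up and 15 down (13.9%, against 15.6% of all genes), and 24 of the 33 calls made on the day 7 table were tested there, of which 12 were called. That table has other counts and also lacks the day 7 b1 library. Of the 12 lost calls, those of DANCR, MAGI2-AS3, MIR503HG, SNHG7 and ZMIZ1-AS1 held in the b2 libraries alone of the day 7 table. Those of LINC00707, LINC02693, MEG3, OIP5-AS1, RNASEH1-AS1, SNHG9 and ZBTB11-AS1 were lost there too. The part of the counting in each was not tested. SNHG32 was called down there (-0.35, edgeR adjusted p = 0.00289) and not in the day 7 table. The tables share libraries, so these calls do not replicate each other.

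**Figure D5:**
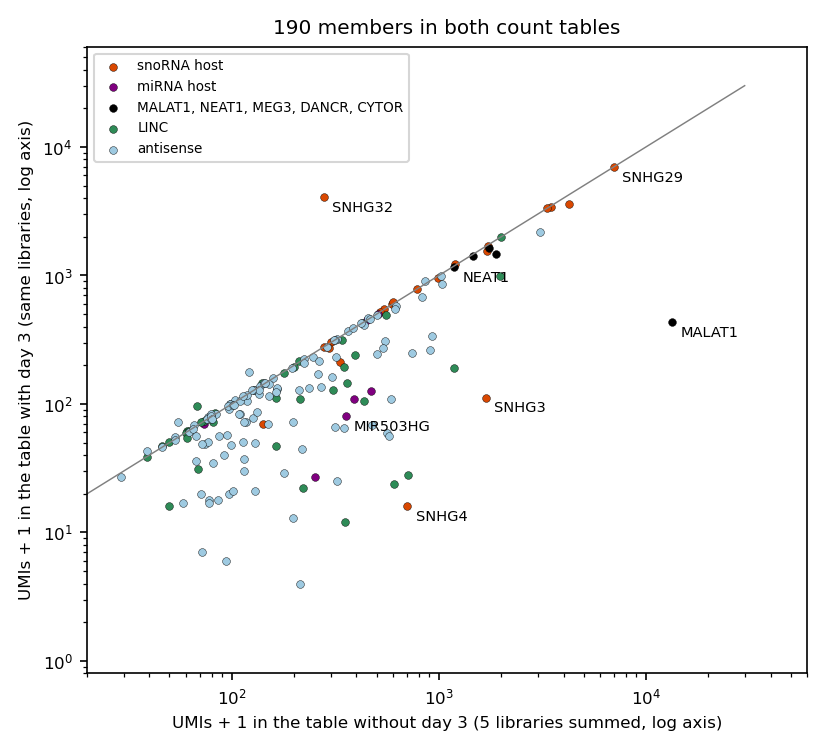
UMIs of the 190 members summed over the 5 libraries named in both tables, each plus 1, on log axes, with the day 7 table on the x axis and the second table on the y axis and a line of equal counts. Most members lie near the line, SNHG4, MALAT1 and SNHG3 far below it, and SNHG32 far above it.

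Cell type markers were read beside the members at day 7. Of the 10 astrocyte markers tested SOX9 (0.64), ID3 (0.65), HES1 (0.52) and CD44 (0.40) rose and ALDOC (-0.83) and CLU (-0.32) fell. The list summed to 7316 to 8780 CPM in untreated and 7718 to 10748 CPM in day 7 libraries, and VIM made up most of that sum. Of 9 fibroblast and pericyte markers 7 were listed and 6 tested, of which COL1A2 (-1.85) and THY1 (-0.40) fell, while DCN and LUM were not listed. That list summed to 842 to 1076 CPM untreated and 449.9 to 993 CPM at day 7. Of 7 neuron markers 3 were listed, summing to 8.28 to 12.4 CPM untreated and 7.68 to 10.9 CPM at day 7, and the 1 tested was not called by edgeR, limma-voom or DESeq2 (it had no unadjusted p under 0.05). The part of these markers in the members' changes was not tested. At day 3 edgeR called up HNRNPA1 of the paraspeckle list (0.29), RBM8A of the decay list (0.65), RPL7A (0.29) and RPS12 (0.22) of the protein-coding hosts, ID3 (0.25) and the neuronal tubulin TUBB3 (0.72). It called down TAF1D (-0.41) of the protein-coding hosts, TERC (-0.85), GDF15 (-0.52) and COL1A2 (-0.74). TUBB3 is not listed in the day 7 table and is outside the neuron sum above, but had a mean of 105 CPM in the second table.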

How the data were processed

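Bulk MARS-seq libraries of IHA cells were analysed from 2 deposited tables of UMI counts per gene, 1 with untreated and day 7 libraries and 1 that adds the day 3 libraries. Per the submitters' processing notes the authors used bcl2fastq, cutadapt, STAR 2.4.2a, HTSeq, DESeq2 and build hg38. No source used here gives the HTSeq strand setting, so an antisense member and an exon opposite it cannot be told apart. Both deposited count tables list genes with at least 6 UMIs in some library. The 55 other per-sample columns were not used.

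Counts as deposited were filtered (filterByExpr), scaled by TMM and fitted in edgeR 4.0.16 with the robust quasi-likelihood test. Day 7 was fitted on all 11 libraries of its table with a term for the tag, and day 3 on the second table. p-values were adjusted by Benjamini-Hochberg over all genes tested, at 0.05. The interaction fit kept 13371 genes. CPM are scaled by TMM, and ± is the standard error of a log2 change. limma 3.58.1 (voom), DESeq2 1.42.0, other scalings, filters and left-out libraries were alternatives. The fits were tested on simulated counts.

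The members and gene lists were chosen with earlier results of these data known. Members named were those called at day 7, at day 3 or between them, all SNHG members, the singly named ones, the 2 of highest mean CPM in each class and the 3 with the largest tag difference each way. Annotation is GENCODE v29 (GRCh38), to which all 250 members matched by symbol, and sequences are from RefSeq. Depth was 2573290 to 5567651 and 1816599 to 4656705 UMIs per library.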

Additional observations from a re-analysis of the deposited data

Results flagged for a closer look

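In 123 groups of 4 libraries, 1 library stood apart from the other 3 in 3 cases by Dixon's ratio (above 0.829), where chance alone marks about 1 group in 20. SNHG29 was at 577 CPM in day 3 b2-9 and 468 to 479 CPM in the other day 3 libraries (ratio 0.903). SNHG17 was at 32.3 CPM in day 7 b2-18 and 29.9 to 30.2 CPM in the others (ratio 0.876). SLC16A1-AS1 was at 1.80 CPM in day 3 b2-11 and 0.366 to 0.563 CPM in the others (ratio 0.862).

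For 3 members the day 7 change differed between b1 and b2 in the interaction test of edgeR: MIR222HG by -1.77 (SE 0.45, adjusted p = 0.03), MIR34AHG by -1.004 (SE 0.27, adjusted p = 0.0447) and SLC9A3-AS1 by -0.95 (SE 0.22, adjusted p = 0.0159). b1 has a single day 7 library, so its own spread at day 7 is not measured.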

How the results depend on the processing

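The count of 33 members called at day 7 was 33 with DESeq2 size factors, 35 with library size alone, 32 with no filter, 29 with a filter at a mean of 20 UMIs, 34 with limma-voom, 28 with DESeq2, 27 in b2 alone and 22 in the second table. It was 8 without the term for the tag, and between 18 and 33 without each library in turn, lowest without untreated b2-2. Over all genes the calls were 1955 of 12449 in the main fit, 323 of 11927 without that term and 1451 of 12675 without untreated b2-2. The 5 calls at day 3 were 2 with DESeq2 and 2 to 7 without each library, with 2 or 3 left without untreated X2 or b2-4 or day 3 b2-10, b2-11 or b2-12. Calls over all genes at day 3 were 372, 271 with DESeq2 and 191 to 578 without each library. Without each library in turn, the 6 calls between day 7 and day 3 ran from 3 (without day 3 b2-12) to 7, the 98 tag calls from 83 to 98, and the 3 interaction calls from 1 (without untreated b2-2, b2-4, b1-2 or b1-3 or day 7 b2-19) to 6 (without day 7 b2-17). Under the other settings the calls between day 7 and day 3 ran from 4 to 8 and the tag calls, a replicate block aside, from 76 to 99. Over single members, 4657 values kept direction and side of the threshold, 234 lost the call, 59 gained it and none changed sign after a call. No paired analysis was possible because untreated, day 3 and day 7 samples share no replicate numbers. Between tags, the fit with untreated 1 and 2 as a replicate block gave 70 calls. Members with under about 20 UMIs per library have wide intervals, and MALAT1, SNHG4, SNHG3, SNHG32 and MIR503HG depend on which table counted them. The cause was not tested.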
